A study of Mus musculus with 6 samples.

Results

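Fatty acid uptake and activation in differentiating mouse myoblasts was followed through 10 genes, taken by symbol from an array table of 23279 named genes. The annotation that came with the array named 7 of the 10 (Lpl, Cd36, Acsl3, Acsl4, Acsl5, Acsl6 and Pparg). Acsl1, Fabp3 and Cpt1b are not analysed here. The 10 symbols were chosen by people who had already seen how activated and control cultures differed, so the differences below are a description of these genes and not an independent test of them.

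The arrays profiled primary myoblasts, the proliferating precursors of muscle fibres, from limb muscle of C57bl6N mice carrying Pax7-CreERT2 and Beta-cetenin-Exon3-loxP/+ (the labels' spelling of beta-catenin). Every culture had this genotype, was expanded for 5 passages in medium holding 20% FBS plus 2 ng/ml bFGF, and was moved to 2% HS for 24 hours to differentiate. While differentiating, the 3 activated cultures received 4-OH tamoxifen in ethanol, which lets the Cre recombinase of cells with Pax7 promoter activity delete exon 3 from the floxed allele and so stabilise beta-catenin. The 3 control cultures received ethanol alone, so recombination and any effect of the drug itself cannot be told apart. Only 1 of the alleles was floxed. The labels call the 3 cultures of a condition independent. They do not state the share of cells recombined, the age and sex of the mice, or whether cultures came from different animals, so the p-values reflect variation among cultures that may be technical.

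Long-chain fatty acids reach muscle cells bound to albumin or are freed from lipoprotein triglyceride by lipoprotein lipase, encoded by Lpl. CD36, encoded by Cd36, helps them cross the plasma membrane, and long-chain acyl-CoA synthetases of the Acsl family then attach coenzyme A, which traps the fatty acid in the cell and commits it to oxidation or to complex lipids. The Acsl enzymes differ in substrate and place: Acsl3 is found on the endoplasmic reticulum and on lipid droplets, Acsl4 prefers polyunsaturated fatty acids such as arachidonate, Acsl5 is found at mitochondria and the endoplasmic reticulum, and Acsl6 is best known from brain. Pparg encodes a nuclear receptor that binds fatty acids, drives fat cell differentiation and has Lpl and Cd36 among its known targets.

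The members' start sites were described by the 250 bases before each start in a RefSeq promoter table (build GRCm38.p6, gene strand). It held 10 windows for 6 of the 7 members, and none for Lpl. Beta-catenin acts through TCF/LEF factors, whose core motif was searched as CTTTGAT and as CTTTGAA on both strands. Neither form lay in any of the 10 member windows, against 3.21% and 4.46% of all 32851 windows. The direct repeat of AGGTCA with 1 base between, a PPAR response element, was also in 0 of 10, and in 0.0335% of all windows. The E-box CAGCTG, a motif of myogenic factors that reads the same on both strands and overlapped no other motif searched, lay in 3 of the 10 windows and in 13% of all windows. No match says only that these letters are not in these windows, and a match is not a site in use. The 3 windows with the E-box are shown, with the motif in capitals, since they belong to Acsl3, with the highest difference of the 7 genes, Acsl4, with the smallest, and Acsl6, which lay between.
Acsl3 (chr1:78657575-78657824, plus strand): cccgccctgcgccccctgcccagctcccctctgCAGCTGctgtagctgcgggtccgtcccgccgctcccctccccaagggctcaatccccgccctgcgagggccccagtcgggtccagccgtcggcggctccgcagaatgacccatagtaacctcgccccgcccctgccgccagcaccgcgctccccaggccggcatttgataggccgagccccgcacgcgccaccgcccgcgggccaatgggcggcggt
Acsl4 (chrX:142390536-142390785, minus strand): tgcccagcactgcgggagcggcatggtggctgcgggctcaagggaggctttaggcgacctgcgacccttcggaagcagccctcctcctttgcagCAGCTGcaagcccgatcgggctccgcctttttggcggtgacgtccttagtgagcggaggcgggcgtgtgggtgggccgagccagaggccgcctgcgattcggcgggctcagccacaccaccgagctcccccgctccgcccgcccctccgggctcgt
Acsl6 (chr11:54303574-54303823, plus strand): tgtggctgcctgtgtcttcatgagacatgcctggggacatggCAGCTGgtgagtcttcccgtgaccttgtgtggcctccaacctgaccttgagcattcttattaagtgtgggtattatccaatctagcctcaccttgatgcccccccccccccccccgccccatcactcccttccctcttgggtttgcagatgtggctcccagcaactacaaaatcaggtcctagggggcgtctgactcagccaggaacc

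The E-box began 217 bases before the start in Acsl3, 156 in Acsl4 and 208 in Acsl6. The windows of Acsl3 and Acsl4 were rich in G and C (75.6% and 70.8%, against a median of 52.4% over all windows) and held 28 and 25 CG pairs. The Acsl6 window shown had 57.2% and 3 CG pairs, and it is the first of 3 start sites listed for that gene. These 3 genes differed between the groups by 2.77, 0.04 and 0.57 on the log2 scale.

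As context for the values, the 6 arrays had medians of 4.04 to 4.36 and correlated at 0.862 to 0.962 across genes. Control replicate 3 stood furthest from the rest, with a mean correlation of 0.896. All values are deposited log2 expression values of 1 probe set per gene, so the level of 1 gene is not set against that of another. For marker lists and members, the side of the array median on which a probe set lay is given as a rough description, which shows neither detection nor absence. Lpl and Pparg lay below the array median on 4 of the 6 arrays, Cd36 on 3 and Acsl6 on 1. Acsl3, Acsl4 and Acsl5 lay below it on 0. Axin2, a feedback target of beta-catenin, averaged 4.32 in control and 5.96 in activated cultures. It did not pass the adjusted threshold in the fit described below, where 0 genes did. Ctnnb1, the beta-catenin gene itself, averaged 8.52 and 8.54, and which exons its probe set reads is not stated, so this does not check the deletion. As for the labelled cell type, 6 of 7 myoblast markers and 9 of 9 differentiated muscle markers lay above the array median on every array. In bulk RNA, fewer cells of a type and less RNA per cell cannot be told apart.

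Across the 7 genes, mean Acsl3 was 6.80-fold higher in activated cultures and mean Pparg 2.44-fold, with groups that did not overlap, though neither passed the adjusted threshold in the fit described below. Mean Lpl was lower and mean Cd36 higher by amounts that varied widely between cultures, and Acsl4, Acsl5 and Acsl6 differed by less than 0.6 on the log2 scale. Of the 7, 5 had a higher mean in activated cultures, where 40.3% of all genes did. The groups did not overlap for 4 of the 7 (Acsl3 and Pparg higher, Acsl5 and Lpl lower), against 12.8% of all genes (5.4% higher and 7.4% lower). The labels number the cultures in each group but state no pairing between groups. Of the 7, Acsl3, Cd36 and Pparg were higher in all 3 numbered pairs of cultures and Acsl5 and Lpl lower in all 3, beside 16.6% and 25% of all genes. Nothing is read from these shares, because the genes were chosen with this comparison known.

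**Figure D1:**
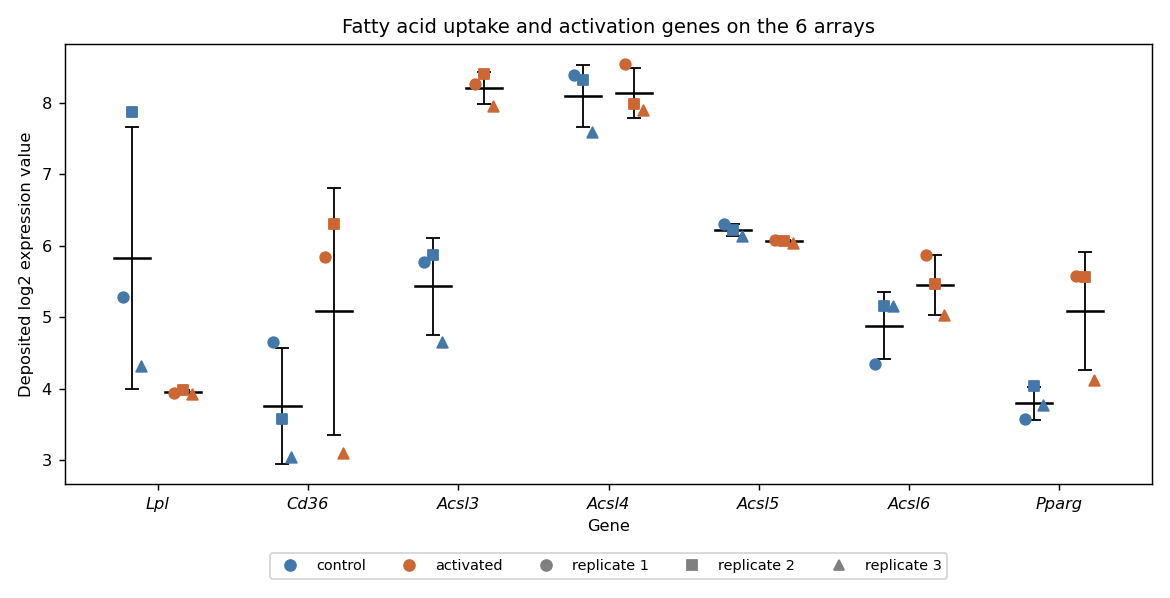
Deposited log2 values (y axis) of the 7 genes (x axis) in control (blue) and activated (orange) cultures. Marker shapes give the replicate number, bars the mean and whiskers the SD (n = 3). The activated Acsl3 points lie from 7.96 to 8.39, above every control point, and the control points of Lpl spread from 4.32 to 7.87 while the activated ones sit at 3.93 to 3.99.

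In the fit of activated against control over all 23279 genes (limma with Benjamini-Hochberg adjustment), 0 genes passed an adjusted p of 0.05 (0% of all genes), and so 0 of the 7. Their adjusted p in limma ran from 0.167 for Acsl3 and 0.489 for Pparg to 0.967 for Acsl4. A block by number treats cultures of the same number as pairs, which the labels do not state. When the numbered cultures were blocked, 31 genes passed (0.133% of all genes), and Acsl3 was the 1 member among them (limma, adjusted p = 0.0434). That call was lost with the block after quantile normalization, where 0 genes passed and Acsl3 was at a limma adjusted p of 0.0671. It was also lost with the block without pair 1 (limma, adjusted p = 0.262) and without pair 2 (limma, 0.193), where 0 genes passed as well. Acsl3 and Pparg were also the members with an unadjusted p under 0.05 without the block, as were 4.44% of all genes in that direction and 3.42% in the other. With the block, Cd36 (limma, unadjusted p = 0.0369) and Lpl (limma, unadjusted p = 0.0279) joined them, beside 9.63% of all genes higher and 7.01% lower. The same caution holds for these p-values: they locate the genes in the whole table and do not support the choice of genes.

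Lipoprotein lipase frees fatty acids from lipoprotein triglyceride, besides those that reach the cell bound to albumin. Replicates 1, 2 and 3 of the control cultures had Lpl at 5.28, 7.87 and 4.32, and the activated cultures, in the same order as for every gene below, at 3.93, 3.99 and 3.93. Control replicate 2 was far above the other control cultures, and the lowest control value exceeded the highest activated value by 0.34. The group means were 5.82 ± 1.83 and 3.95 ± 0.03 (SD, n = 3), a log2 difference of -1.87 ± 0.80 (SE), or 3.66-fold. Its 95% interval reached from -3.75 to 0.003. Within the numbered pairs the difference was -1.35, -3.88 and -0.39. Without control replicate 2 it was -0.85. The 3 activated values and the lowest control value lay below the median of their array.

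CD36 carries fatty acids across the plasma membrane. Cd36 was at 4.65, 3.58 and 3.05 in control and at 5.85, 6.30 and 3.10 in activated cultures. Activated replicates 1 and 2 exceeded every control culture, and activated replicate 3 lay among the lowest values. The means were 3.76 ± 0.81 and 5.08 ± 1.73 (SD, n = 3), with a log2 difference of 1.32 ± 0.83 (SE) and a 95% interval from -0.63 to 3.27. All 3 pairs had a positive difference, from 0.06 in pair 3 to 2.71 in pair 2. Without activated replicate 3 the difference was 2.31, without activated replicate 2 it was 0.72.

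Among the acyl-CoA synthetases, Acsl3 showed the highest difference of the 7 genes. Its level was 5.77, 5.87 and 4.65 in control and 8.25, 8.39 and 7.96 in activated cultures. The groups were 2.08 apart at their nearest points, which is wider than the range within control (1.22) or activated cultures (0.44). The means of 5.43 ± 0.68 and 8.20 ± 0.22 (SD, n = 3) differed by 2.77 ± 0.36 (SE) on the log2 scale, 6.80-fold with a 95% interval from 3.80-fold to 12.2-fold. By size it stood at position 15 of the 23279 differences, counted from the highest. The pairs differed by 2.48, 2.52 and 3.30. Leaving out any 1 culture gave 2.38 to 2.99, and the lower value came without control replicate 3, the control culture with the lowest Acsl3.

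The closest relative of Acsl3 in the family is Acsl4, whose groups overlapped. It was at 8.38, 8.31 and 7.59 in control and at 8.54, 7.98 and 7.89 in activated cultures. The log2 difference was 0.04 ± 0.30 (SE), with a 95% interval from -0.67 to 0.76. The sign of the Acsl4 difference turned under other scalings, to -0.25 after quantile normalization and -0.33 after cyclic loess, and without control replicate 3 it was -0.21 and without activated replicate 1 -0.16. No direction is given for this gene.

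Acsl5 had the tightest values of the 7 genes, 6.30, 6.22 and 6.14 in control and 6.08, 6.06 and 6.04 in activated cultures. Each activated value lay below each control value, but the groups were only 0.06 apart. The log2 difference of -0.16 ± 0.19 (SE) had a 95% interval from -0.61 to 0.30. It was -0.34 after quantile normalization and -0.03 after median centring, where the groups overlapped.

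Acsl6 was at 4.34, 5.15 and 5.15 in control and at 5.86, 5.47 and 5.03 in activated cultures. The identical values in control replicates 2 and 3 are in the deposited table, where these arrays share 33 identical values among 24479 probe sets. The activated cultures overlapped the control cultures through activated replicate 3. The log2 difference was 0.57 ± 0.33 (SE), with a 95% interval from -0.20 to 1.34, and the pairs gave 1.52, 0.31 and -0.12. Without control replicate 1 it was 0.30 and without activated replicate 1 it was 0.37.

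**Figure D2:**
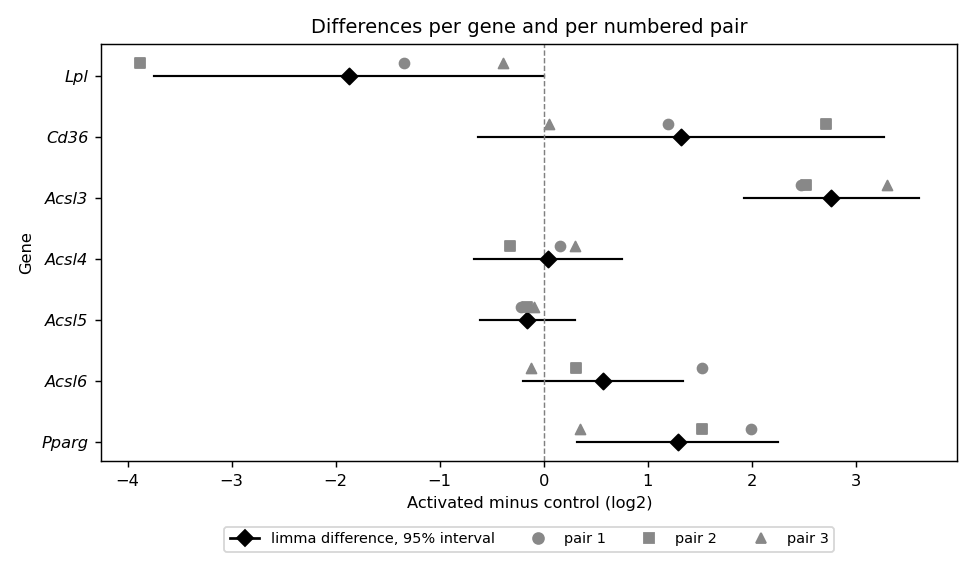
Activated minus control on the log2 scale (x axis) for each of the 7 genes (y axis). Diamonds and lines are limma's differences with their 95% intervals, and grey markers above them the differences within numbered pairs 1 to 3. The interval of Acsl3 begins at 1.93 and that of Pparg runs from 0.32 to 2.25, while those of the other 5 genes include 0.

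The nuclear receptor gene Pparg was at 3.58, 4.04 and 3.78 in control and at 5.57, 5.55 and 4.13 in activated cultures. Activated replicates 1 and 2 stood well above the control cultures, and activated replicate 3 exceeded the highest of them by 0.09. The means were 3.80 ± 0.23 and 5.08 ± 0.83 (SD, n = 3), a log2 difference of 1.29 ± 0.41 (SE), or 2.44-fold. The pairs differed by 1.99, 1.52 and 0.35. All 3 control values and activated replicate 3 lay below the median of their array. Leaving out any 1 culture gave 1.04 (without activated replicate 1) to 1.76 (without activated replicate 3). The unadjusted p in limma was 0.0556 without control replicate 1. It was 0.0578 without activated replicate 1 and 0.0569 without activated replicate 2. With any other culture left out it stayed under 0.05.

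For Cd36 and Pparg alike, the third pair gave the smallest of the 3 differences, and for Lpl as well, while for Acsl3 it gave the largest. Marker lists moved between the groups too. The mean of the 9 differentiated muscle markers was 7.37 to 8.76 in control and 9.41 to 10.18 in activated cultures. It was lowest in control replicate 3 and, among activated cultures, in activated replicate 3. The mean of the 7 dividing cell markers was 7.24 to 8.09 and 5.29 to 6.69, with activated replicate 3 the highest of its group. The part of these shifts in the values of Acsl3, Pparg, Cd36 and Lpl was not tested.

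Fat cells, endothelium and macrophages also use Lpl, Cd36 or Pparg, so their other markers were read. Of 9 adipocyte markers, 7 lay below the array median on all 6 arrays, and the list mean was 3.34 to 3.69 in control and 3.07 to 3.50 in activated cultures. Adipoq, the gene of the fat cell hormone adiponectin, was at 3.38, 3.17 and 2.76 in control and at 2.74, 2.61 and 2.64 in activated cultures. The fat cell fatty acid carrier Fabp4 was at 2.16 to 2.65 and 2.49 to 2.83. Of 10 endothelial markers, 7 lay below the median on all arrays, with list means of 3.30 to 3.53 and 3.00 to 3.32. Macrophage markers averaged 3.80 to 4.35 and 3.57 to 3.92, with 5 of 10 below the median throughout and 4 of 10 above it. Of the macrophage markers 9 of 10 had a lower mean in activated cultures, as did Lpl, and 4 of 10 were lower without overlap (7.4% of all genes). The part of this in the Lpl values was not tested. The fibro-adipogenic markers averaged 4.10 to 4.39 and 3.87 to 4.25, with 3 of 7 below the median throughout and 3 of 7 above it. Of these markers 5 of 7 had a lower mean in activated cultures (4 of 7 after quantile normalization), and 2 of 7 were lower without overlap (7.4% of all genes). Of the adipocyte markers 8 of 9 had a lower mean in activated cultures (6 of 9 after quantile normalization), and of the endothelial markers 8 of 10. Of all genes, dim and bright together, 59.7% did, and the share was not computed for dim genes alone.

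**Figure D3:**
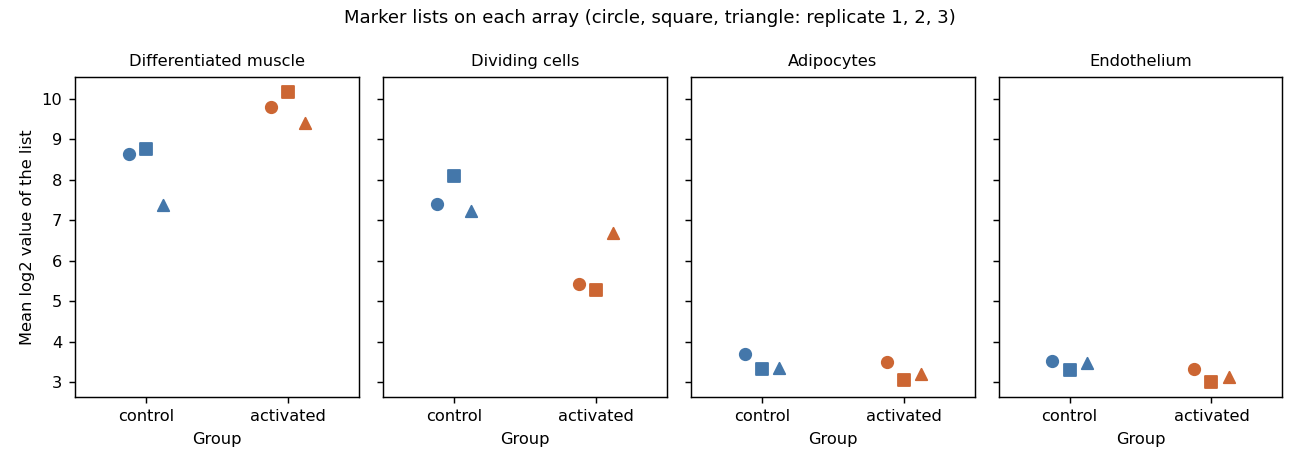
Mean log2 value (y axis) of 4 marker lists on each array, by group (x axis), with circles, squares and triangles for replicates 1, 2 and 3. Differentiated muscle markers averaged 9.41 to 10.18 in activated cultures, above the 7.37 to 8.76 of control cultures, and adipocyte markers stayed between 3.07 and 3.69 on all 6 arrays.

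The other genes of fatty acid handling were read from 10 lists that leave the members out and hold 97 measured genes together. In limma 0 of the 97 passed over all genes, with or without the replicate block. Of the 97, 53 had a higher and 44 a lower mean in activated cultures, with a median log2 difference of 0.07 beside -0.08 over all genes. At an unadjusted p under 0.05 there were 8 higher and 4 lower genes (12 in all), against 4.44% and 3.42% of all genes. Without activated replicate 2 there were 5 in all, beside 907 of all 23279 genes. With the block there were 17 and 6, against 9.63% and 7.01% of all genes. Groups did not overlap for 13.4% of the 97, close to the 12.8% of all genes.

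The uptake and carrier lists were split between higher and lower genes. Of 6 fatty acid transport proteins, Slc27a3 was at 5.29, 5.30 and 4.86 in control and at 4.42, 4.18 and 4.74 in activated cultures, a log2 difference of -0.70 ± 0.25 (SE). It was the 1 of the 6 without overlap (16.7%, against 12.8% of all genes). Slc27a4 differed by 0.58 and Slc27a5 by -0.23 (-0.05 after quantile normalization). Slc27a6, Slc27a2 and Slc27a1 differed by -0.16, 0.05 and 0.03, each within its SE. Of 9 binding proteins, 4 were higher and 5 lower, and 0 had an unadjusted p under 0.05. With the block 1 did (Dbi, higher), beside 9.63% of all genes in that direction. The acyl-CoA binding protein Dbi differed by 0.69 (0.11 without activated replicate 2), Fabp4 by 0.29 (0.17 without control replicate 3) and Fabp12 by -0.36 (-0.13 without control replicate 1). Among 10 measured partners of lipoprotein lipase, the sorting receptor Sort1 was at 5.88, 6.13 and 4.23 in control and at 7.48, 7.28 and 6.05 in activated cultures. Its log2 difference was 1.52 ± 0.58 (SE), with overlapping groups. Sel1l, which lipase maturation needs in the endoplasmic reticulum, differed by 0.95 and its groups did not overlap. Without control replicate 3 these differences were 0.93 for Sort1 and 0.63 for Sel1l. Sdc1, a heparan sulfate proteoglycan of the cell surface, differed by -0.67, and by -0.22 without activated replicate 1.

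Of the 11 other acyl-CoA synthetases, 8 had a lower mean in activated cultures. The exception with the smallest p was Acss2, which makes acetyl-CoA from acetate, at 3.82, 3.71 and 3.19 in control and at 4.61, 5.39 and 4.23 in activated cultures. Its log2 difference was 1.17 ± 0.35 (SE). Acsm3 differed by -0.62 and Acsbg2 by -0.70, both without overlap. Groups did not overlap for 36.4% of the 11 (1 higher and 3 lower), against 12.8% of all genes. The count of lower means followed the scaling: 6 of 11 were lower after quantile normalization.

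Downstream, fatty acyl-CoA enters mitochondria through the carnitine shuttle. Crat, the carnitine acetyltransferase, had the smallest adjusted p of the 97 genes (limma, 0.325). It was at 5.00, 6.34 and 5.29 in control and at 7.07, 7.82 and 6.94 in activated cultures, a log2 difference of 1.73 ± 0.41 (SE) without overlap. The carrier Slc25a20 differed by 0.83 (0.55 without control replicate 3). Cpt1a, the carnitine palmitoyltransferase that limits entry in many tissues, went the other way, from 6.96, 7.80 and 8.39 in control to 6.43, 6.47 and 7.42 in activated cultures, a difference of -0.94 ± 0.43 (SE) that was -0.60 without control replicate 3.

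Genes of mitochondrial beta-oxidation were more often higher than lower, 11 of 15, with a median log2 difference of 0.41 (0.32 after cyclic loess, and 15 of 15 higher after median centring). They lay at percentiles 56.5 to 96.6 of mean level. Over the brighter genes alone the median difference was 0.12, beside -0.08 over all genes. The part of this in the list was not tested. Acadl, a long-chain acyl-CoA dehydrogenase, was at 7.61, 8.42 and 6.30 in control and at 8.95, 9.59 and 8.65 in activated cultures, without overlap. Its log2 difference of 1.62 ± 0.53 (SE) was 1.05 without control replicate 3. The electron transfer genes Etfdh and Etfb differed by 0.93 and 1.43, and Etfb by 0.58 without activated replicate 2 and Etfdh by 0.58 after cyclic loess. Only Acadl of the 15 had groups apart (6.67%, against 12.8% of all genes), and none passed in limma, where the smallest adjusted p was 0.504. An unadjusted p under 0.05 was reached by 2 of the 15, both higher (4.44% of all genes), and with the block by 6 of 15, all higher (9.63% of all genes).

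The partners and known targets of PPAR receptors were read beside Pparg. Of the 5 other receptor genes, Rxrg differed by 0.53, Rxra by -0.17, Rxrb by 0.23, Ppard by 0.22 and Ppara by 0.03, with overlapping groups throughout. Rxrb was at -0.01 without control replicate 2. Of 11 measured PPAR target genes 8 were higher (40.3% of all genes were), with a median of 0.29 (-0.08 over all genes). The lower ones were Cpt1a, Acot1 and Angptl4, at -0.94, -0.38 and -0.24. Among the members, Lpl and Cd36, also known targets of Pparg, differed by -1.87 and 1.32. Pdk4, the kinase that turns off pyruvate dehydrogenase, was at 8.67, 8.26 and 7.08 in control and at 9.48, 9.48 and 9.16 in activated cultures. It was the 1 target of the 11 without overlap (9.09%, against 12.8% of all genes). Its log2 difference was 1.37 ± 0.41 (SE), and 0.91 without control replicate 3.

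**Figure D4:**
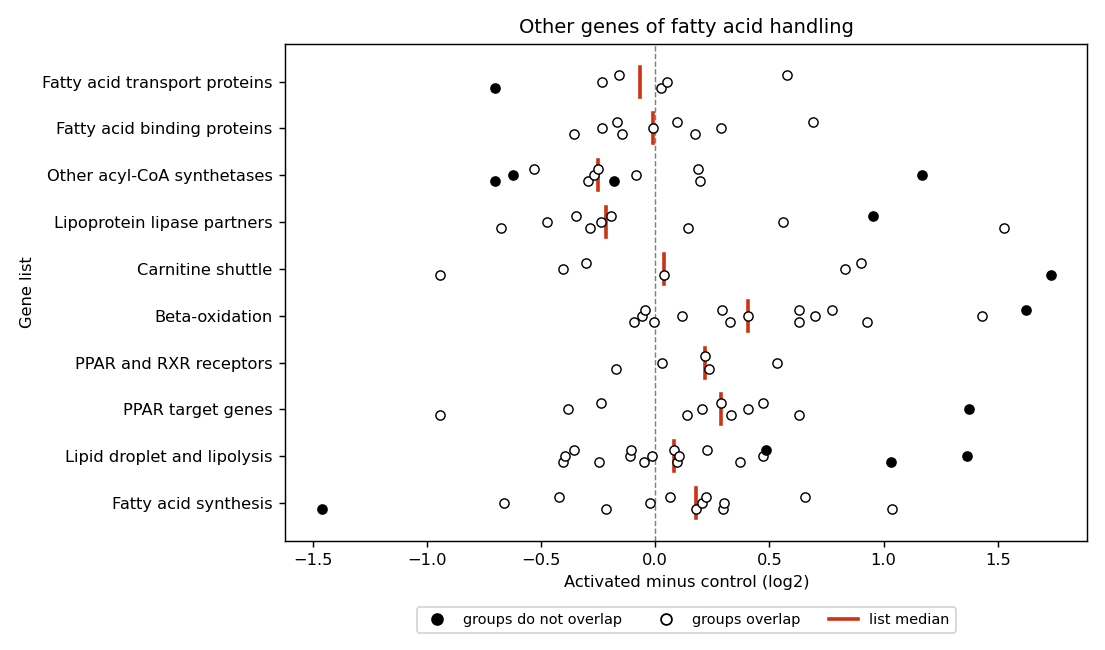
Activated minus control on the log2 scale (x axis) for each gene of 10 lists (y axis); some genes belong to more than 1 list. Filled points mark genes whose groups do not overlap and red bars list medians, which run from -0.25 for the other acyl-CoA synthetases to 0.41 for beta-oxidation.

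Of 17 lipid droplet and lipolysis genes, 9 had a higher and 8 a lower mean, and 3 were higher without overlap (5.4% of all genes). The triglyceride lipase gene Pnpla2 was at 5.33, 5.16 and 4.84 in control and at 5.64, 6.35 and 6.45 in activated cultures, a log2 difference of 1.03 ± 0.29 (SE). Abhd5, its activator, differed by 1.37 (0.81 without control replicate 3 and 0.87 without activated replicate 2), and the monoglyceride lipase gene Mgll by 0.49. The hormone-sensitive lipase gene Lipe, named here after its value was seen, differed by -0.35. Its groups overlapped, and its pairs differed by -1.04, 0.07 and -0.10. Of the 13 genes of fatty acid synthesis, the elongase gene Elovl6 was the 1 without overlap (7.69%, against 12.8% of all genes). It was at 6.74, 5.49 and 6.11 in control and at 4.91, 4.10 and 4.94 in activated cultures, a difference of -1.46 ± 0.38 (SE). Scd2 differed by 1.04 and Fads2 by -0.66, and without control replicate 3 they differed by 0.66 and -0.37.

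The genes most like Acsl3 over the 6 arrays, by Pearson correlation of the log2 values, were Baiap2l1, Ubr3, Pomgnt2, Pi4k2a and Atcayos (r from 0.993 to 0.995). Baiap2l1 had a control mean of 7.06 ± 0.65 and an activated mean of 9.32 ± 0.22 (SD, n = 3), and Atcayos 6.15 ± 0.65 and 8.23 ± 0.29. For Pparg, the member with the next smallest p, they were 9330159F19Rik, Srfbp1, Sec22a, Fbxo40 and Capn3 (r from 0.989 to 0.991). Fbxo40 averaged 3.44 ± 0.26 and 5.79 ± 1.34, and Capn3, which encodes the muscle protease calpain 3, 3.54 ± 0.41 and 5.02 ± 0.99. The 6 points of each correlation share the 2 groups and the arrays, and the genes were picked from 23279, so the correlations are a description.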

How the data were processed

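Primary myoblasts from 3 control and 3 activated cultures were profiled on arrays, from 100 ng of total RNA each. The authors deposited log2 expression values for 24479 probe sets. RMA and Partek are named in the submitters' processing notes, without role or version. No source used here states an array design, a genome build or detection calls. The platform annotation gave 1 symbol to 23281 probe sets, several to 0 and none to 1198. For the 2 symbols with several probe sets the brightest was kept, leaving 23279 genes.

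The planned comparison of Acsl proteins was not run. limma 3.58.1 (R 4.3.3) was fitted to all genes with group as the only term and no filter on dim genes, two-sided, with Benjamini-Hochberg adjustment. The script was tested on simulated data. Array number limits the precision. Deviations from group means correlated at 0.38, 0.49 and 0.45 for arrays numbered 1, 2 and 3. All exceed 0.1, so the numbers were taken to pair the cultures and the blocked fit is given where it changes a call. The labels state no pairing, so it is inferred from these same values. Correlations between arrays of unlike number were not computed for comparison. Members and lists were chosen with earlier results of these data known. Named besides the members were the 3 genes of each list with the smallest p, all genes of lists of 6 or fewer, Adipoq and Fabp4 as defining fat cell markers (other cell type lists are given by their ranges), Axin2 and Ctnnb1 as a check of the labels, and the 5 genes most like Acsl3 and Pparg. Lipe, Acot1 and Angptl4 were named outside these rules, after their values were seen. Alternatives covered scaling, the block, dim genes, the variance model and leaving out cultures.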

Additional observations from a re-analysis of the deposited data

How the results depend on the processing

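Of the member differences recomputed under alternatives, 109 kept their sign and their side of the threshold, 7 changed sign and 3 newly passed it. In the main fit 0 members passed, so a kept side means still not passing. The block on all 6 arrays, the brighter genes, the variance model and averaged probe sets leave differences unchanged, so no sign could change there. Differences moved by a factor over 1.5 in 4 of 17 settings for Acsl5 and Acsl6, 3 for Cd36, 2 for Lpl, 13 for Acsl4, and 0 for Acsl3 and Pparg. With the replicate block Acsl3 passed (limma, adjusted p = 0.0434; 0.0671 after quantile normalization as well). Without pair 3 the blocked adjusted p was 0.00907 for Acsl3 (log2 difference 2.50) and 0.0279 for Pparg (1.76), but without pair 1 it was 0.262 and 0.433, and without pair 2 0.193 and 0.391 (limma). Acsl4 changed sign in 7 settings: -0.25 after quantile normalization with or without the block, -0.33 after cyclic loess, -0.0135 and -0.0825 with the block without pair 1 and pair 3, and down to -0.21 (up to 0.19) when 1 culture was left out. The cause was not tested. Genes called over all genes numbered 31 with the block and 501 with the block without pair 3, but 0 with the block without pair 1, without pair 2 or after quantile normalization, and 0 to 28 when 1 culture was left out (28 without activated replicate 3). Pathway genes at an unadjusted p under 0.05 numbered 12, 23 with the block, 19 with the block after quantile normalization, and 5 to 17 when 1 culture was left out. Over all genes, the counts in the same order were 1830, 3875, 3201 and 907 to 3066. Members without overlap numbered 4 (beside 12.8% of all genes), 3 after median centring and 6 without activated replicate 3. The share over all genes was not computed for the last 2 settings, and groups of fewer arrays separate more easily. Nothing is read from these counts. Rescaling moved the median difference of all genes from -0.08 to 0.04 at most, and the median-centred split at an unadjusted p under 0.05 was 1317 higher and 537 lower genes, against 1034 and 796. Motif counts in the member windows were the same over 300 bases. No detection calls were used, so signal over background is unknown for every probe set.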
